A study of Solanum lycopersicum with 30 samples.

Results

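The arrays described here compared leaves of TMV-challenged with leaves of mock-treated tomato (Solanum lycopersicum) of the resistant line, labelled N, 3 h after treatment. They were the 4 arrays whose titles give that genotype, that time and a replicate number from 1 to 4, out of 30 arrays in 9 groups in the series. Tobacco mosaic virus (TMV) is a positive-strand RNA virus that spreads from cell to cell through plasmodesmata. N is a resistance gene from tobacco that encodes an intracellular immune receptor of the TIR-NB-LRR class. It recognises the helicase part of the viral replicase, and in tobacco this is followed by a hypersensitive response, the death of the infected cells, and by induction of pathogenesis-related proteins.

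Each array carried 2 RNA samples of the resistant line, one from a leaf challenged with TMV sap and labelled with Cy3, and one from a leaf treated with mock leaf sap and labelled with Cy5. Plants were 28 to 35 days old, from a chamber at 25 °C lit for 16 h and dark for 8 h, every RNA came from a single plant, and 25 µg of total RNA was labelled. The groups used for comparison were treated in the same way: the susceptible line, labelled n, at 3 h (3 arrays), the mutant sun1-1, which carries N but is more susceptible, at 3 h (3 arrays), and the resistant line at 9 h and at 27 h (4 arrays each). Both channels of an array held sap-treated leaves, and the labels do not say how N came to be in the tomato line. For replicate 4 of resistant 9 h and of resistant 27 h the treatment text of the TMV channel named 3 h and 9 h, against 9 h and 27 h in the titles, and those arrays were grouped by title.

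The deposited value of a spot is the log2 ratio of the 2 channels of an array, so a value of 0 means equal signal and a value of 1 a 2-fold difference. Which of the 2 channels stands in the numerator is not stated in the labels, and no array had its dyes swapped. All signs below are therefore those of the deposited values: genes of one sign lie on the same side of the comparison, but neither side is assigned to TMV or to mock. A preference of a probe for one dye is part of every value against 0, whereas it cancels in a difference between 2 groups of arrays if it is constant. The values hold no level of either channel, so the labelled tissue could be checked only by whether chloroplast probes gave values: clones of PSBR, a subunit of photosystem II, and THF1, a thylakoid formation protein, did so on these arrays. In leaf RNA, fewer cells of a type and less RNA per cell cannot be told apart.

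Coverage was uneven over the 4 arrays. Replicate 1 gave values for 9511 clones, replicate 2 for 5885, replicate 3 for 3942 and replicate 4 for 3131, each clone being printed as 2 spots that were averaged. Duplicate spots correlated across clones at r = 0.805, 0.816, 0.728 and 0.490 in replicates 1 to 4. Of 15360 clones, 6093 had a value on at least 2 of the 4 arrays and were tested, 2606 of them on all 4. A single gene symbol was available for 653 of the tested clones, which made 353 symbols of the 430 on the array. Symbols are those of the platform annotation. None of the 430 gene identifiers was in the tomato gene table (0 matched), so roles given below are those of the symbol, and LOC symbols are left without a role.

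The 4 arrays correlated only weakly with each other. Across clones, the 6 pairs of arrays correlated at r = 0.202 (replicates 1 and 2), 0.150 (1 and 3), 0.199 (1 and 4), 0.154 (2 and 3), 0.212 (2 and 4) and 0.378 (3 and 4). No pair was below 0, and the 2 arrays with the fewest values were the most alike. All pairs share the dye assignment, so a constant dye preference of a probe is part of these correlations. Of the 2606 clones with a value on all 4 arrays, 260 were positive on each of them and 351 negative on each, 23.4% in all.

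Most clones had a mean near 0. The median of the 6093 clone means was 0.02, the quartiles were -0.17 and 0.19, and the 5th and 95th percentiles were -0.46 and 0.44. A mean of 1 or more was seen for 21 clones and a mean of -1 or less for 10. The median SE of a clone mean was 0.205 over all tested clones and 0.185 for clones with 4 arrays.

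No clone passed an adjusted p of 0.05 in limma's moderated test of the mean against 0 (0 of 6093, 0%), and the lowest adjusted p was 0.0682. At an unadjusted p under 0.05 there were 613 clones (10.1%), 343 of them negative (5.63%) and 270 positive (4.43%), where 305 would be counted at that level if no clone differed and clones were independent. Among the 653 clones with a symbol, 85 (13%) were at that level, 58 negative and 27 positive. With the clones of a symbol averaged first, 0 of 353 symbols passed the adjusted threshold in limma (lowest adjusted p 0.133), and 31 (8.78%) had an unadjusted p under 0.05. The symbols were evenly split by sign, 182 positive and 171 negative, with a median of 0.01. The genes named below are thus the leading candidates of a comparison in which none passed the threshold.

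Among the negative values, LOC102595943 led. Its clone 150107 (a clone is named by the ID of its first spot) read -0.81, -0.79, -0.61 and -0.84 in replicates 1 to 4, with a mean of -0.76 (SE 0.167, adjusted p = 0.140 by limma). All 4 arrays lay close together and all 7 spots with a value were below 0. All 6 tested clones of LOC102595943 had negative means, between -0.76 and -0.52, and each had an unadjusted p under 0.05, against 10.1% of all clones. Averaged, the clones gave -1.0, -0.52, -0.50 and -0.53, a mean of -0.64 (SE 0.182, adjusted p = 0.223 over the 353 symbols by limma). Replicate 1 was the lowest and the other 3 arrays were nearly equal. Clones of one symbol share their RNA samples and can share sequence, so they are repeated readings and not replicates. One clone of this symbol, 147668, rested partly on replicate 1: its mean was -0.52 with it and -0.35 without it.

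GAPDH, glyceraldehyde-3-phosphate dehydrogenase of glycolysis, was negative for all 7 of its clones, with means from -0.55 to -0.09 and an unadjusted p under 0.05 for 4 of them. Clone 151485 read -0.88, -0.51, -0.46 and -0.35 (mean -0.55, SE 0.134, adjusted p = 0.177 by limma), with all 8 of its spots below 0. The average over the 7 clones was -0.69, -0.28, -0.11 and -0.18, a mean of -0.32 with an SE of 0.128. No array was positive, replicate 1 lay furthest from 0, and without it the mean was -0.19.

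LOC102577562 had the smallest p of any symbol. Its averaged clones read -0.56, -0.60, -0.49 and -0.47, a mean of -0.53 ± 0.06 (SD, n = 4 arrays; SE from limma 0.128, adjusted p = 0.133). The 4 averaged arrays were closer together than for the other leading symbols. That evenness is of the average over 2 clones and not of a single clone. Clone 143209 alone read -0.29, -0.67 and -0.89 in replicates 1, 2 and 4 (SD 0.305). LOC102596885 was more negative, with a mean of -0.74 (SE 0.260), but replicate 1 at -1.63 stood far below -0.20, -0.59 and -0.54, and the mean without replicate 1 was -0.45. LOC102601090, at -0.88, -0.33, -0.27 and 0.00, also leaned on that array, its mean being -0.37 with replicate 1 and -0.20 without it. UCP, a mitochondrial uncoupling protein of the inner-membrane carrier family, read -0.56, -0.30 and -0.51 on the 3 arrays that measured it (mean -0.46, SE 0.175). LOC102580417 was negative for all 6 clones, between -0.51 and -0.35.

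Other clones with a symbol among the 15 with the smallest p were negative too. They were LOC102580103 (mean -0.43), LOC102583272 (-0.46), LOC102577558 (-0.55) and LOC102595372 (-0.41), each negative on all 4 arrays, with adjusted p between 0.281 and 0.283 in limma. In all, 12 of those 15 clones were negative and 3 positive, the 3 being clones of LOC102596978 and LOC102600559. Several of the negative ones were clones of LOC102595943, so this is not a count over genes. Over all tested symbols, 171 were negative and 182 positive.

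Among the positive values, LOC102596978 had the clone with the smallest p. Clone 154000 read 1.76, 1.07, 0.83 and 0.68, a mean of 1.08 (SE 0.322, adjusted p = 0.247 by limma), and all 8 spots were above 0. Clone 150428 read 1.70, 0.86, 0.77 and 0.17 (mean 0.87). Both were highest in replicate 1 and lowest in replicate 4, and their groups of 4 arrays lay wholly above 0. LOC102596978 had 3 tested clones, of which only these are given singly. With all its clones averaged, it read 1.67, 0.944, 0.535 and 0.425, a mean of 0.89 (SE 0.258). LOC102600559 was smaller but even, its clone 155807 reading 0.53, 0.51, 0.38 and 0.25 (mean 0.42, SE 0.135).

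RSI5 and STWRKY8 were the leading positive symbols with a gene name. RSI5 read 0.77, 1.74, 0.62 and 1.18 from 1 clone, a mean of 1.08 (SE 0.373, adjusted p = 0.438 over symbols by limma). It was above 0 on every array and highest in replicate 2. STWRKY8 belongs to the WRKY transcription factors, whose members bind W-box elements in promoters of defence genes. It read -0.15, 0.68, 0.66 and 1.81, a mean of 0.75 (SE 0.284, adjusted p = 0.438). The array values of STWRKY8 ran from just below 0 in replicate 1 to well above 0 in replicate 4, and without replicate 4 the mean was 0.40. Its 2 clones gave 0.67 and 0.83.

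**Figure D1:**
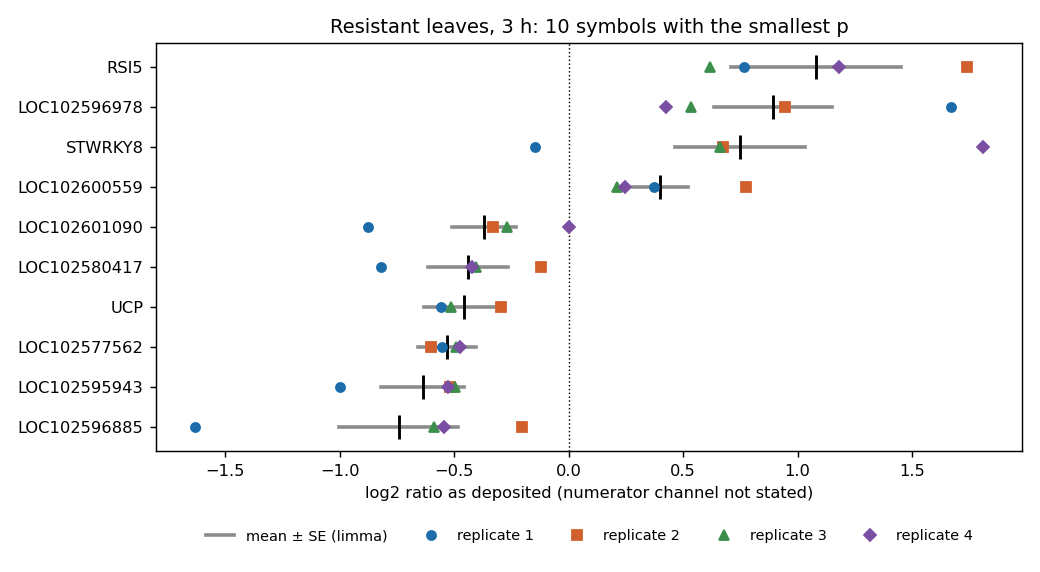
Log2 ratio as deposited (x axis) for the 10 symbols with the smallest p in resistant leaves at 3 h, with a point for each of the 4 arrays, a black tick for the mean and a grey bar for its SE from limma. Values are averages over the clones of a symbol. The 4 averages of LOC102577562 nearly coincide, although its clone 143209 alone ran from -0.29 to -0.89. Replicate 1 lies apart for LOC102595943 and LOC102596885 and replicate 4 for STWRKY8.

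Clones without a symbol included the smallest p of the comparison. Clone 142076 read -1.06, -0.52, -0.38 and -0.89, a mean of -0.71 (SE 0.131, adjusted p = 0.0682 by limma). It was negative on all 4 arrays. Clone 147572 had a mean of -1.06 over 3 arrays. On the positive side, clone 160955 read 0.69, 1.24, 0.55 and 0.60 (mean 0.77), and clone 131940 averaged 0.95 over the 2 arrays that measured it.

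Symbols with many clones show how far separate probes of one gene go together. There were 34 symbols with 4 or more tested clones, 183 clones in all, a selection made after the data were seen. All clones were negative for 11 of these symbols, all positive for 6, and 17 had clones of both signs. Beside LOC102595943, GAPDH and LOC102580417, the negative ones included LOC102577446 (7 clones, -0.67 to -0.39), LOC102578519 (4 clones, -0.56 to -0.45) and LOC102596966 (4 clones, -0.52 to -0.34). LOC102598069 was less even, with 4 clones negative down to -0.65 and 1 clone at 0.30. On the positive side, METK1, which makes S-adenosylmethionine from methionine and ATP, had 9 clones between 0.05 and 0.31. LOC102577512 had 8 clones between 0.12 and 0.40, and LOC102582822 had 4 between 0.27 and 0.58. Only 2 of the 8 clones of LOC102577512 and none of the 9 of METK1 had an unadjusted p under 0.05, so for these small values the clones shared a sign without passing a test. LOC102587499, with 10 clones between -0.11 and 0.20, was centred on 0.

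**Figure D2:**
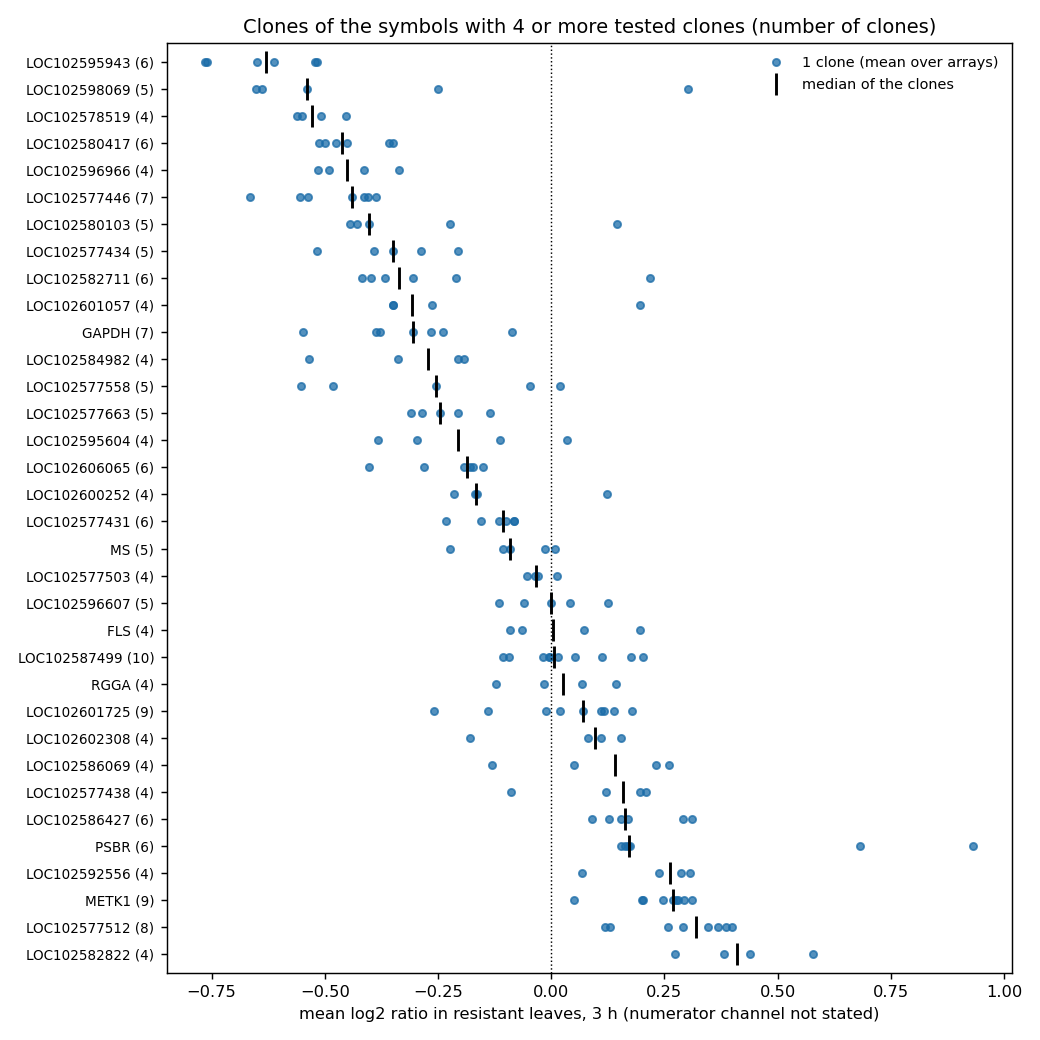
Mean log2 ratio as deposited (x axis) of each of the 183 clones of the 34 symbols with 4 or more tested clones, ordered by the median of the clones (black tick); the number of clones is given after the symbol. The clones of LOC102595943 lie between -0.76 and -0.52 and those of METK1 between 0.05 and 0.31, whereas 17 symbols have clones on both sides of 0.

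A set of 50 symbols was grouped by name or known function into 10 lists, and 42 of them were tested. The members were chosen with earlier results of these data known, so counts and medians per list are descriptions and not tests. Of the 37 list symbols with 3 or more arrays, the mean of 31 changed sign or moved by over 1.5 times when some 1 array was left out, so most means below rest on few arrays. No list member passed the adjusted threshold in limma, 24 were positive and 18 negative, and 6 had an unadjusted p under 0.05 where 8.78% of all 353 symbols did. In the defence list, to which RSI5, SRE1A and 16R were assigned by the start of their symbols and are left without a role, 4 of 5 symbols were positive, with RSI5 and STWRKY8 at an unadjusted p under 0.05, and the list median, SRE1A's own value, was 0.29 against 0.01 over all symbols. PR1B, a pathogenesis-related protein 1 and a usual marker of the salicylate response, was not among them. PR1B read 0.72, 0.43, -0.72 and 0.01, a mean of 0.11 (SE 0.464), with arrays on both sides of 0. SRE1A was even at 0.30, 0.26 and 0.31 on 3 arrays. The fifth member, 16R, was negative on all 4 arrays, at -0.02, -0.42, -0.45 and -0.22.

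The redox list held 4 symbols, of which 3 were positive and none had an unadjusted p under 0.05. CAT1, a catalase that removes hydrogen peroxide, read 0.24, -0.16, 0.14 and -0.01 and so varied about 0. DHAR and DHAR2 are dehydroascorbate reductases, which regenerate ascorbate. DHAR read 0.07, 0.57, 0.10 and 0.13 (mean 0.22, SE 0.184), where replicate 2 stood above the other arrays and the mean without it was 0.10. The 0.07 of replicate 1 averages clone 146279, at 0.32, with a clone that had too few values to be tested. DHAR2 read -0.99, -0.24, 0.16 and -0.27 (mean -0.34, SE 0.172), and its mean without replicate 1 was -0.12. GRX2, a glutaredoxin, was measured on 2 arrays, at 0.38 and 0.40.

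None of the 3 phenylpropanoid and 2 tested oxylipin symbols had an unadjusted p under 0.05. F3H and FLS, flavanone 3-hydroxylase and flavonol synthase of the flavonoid pathway, averaged 0.14 and 0.03, and SHKA, the enzyme that opens the shikimate pathway, averaged 0.08. Each had arrays on both sides of 0. HPL, hydroperoxide lyase, which makes volatile aldehydes from lipid hydroperoxides, averaged 0.09. PPO, polyphenol oxidase, a wound-related enzyme, read -0.85, -0.73, 1.08 and -0.51, so that replicate 3 went against the other 3 arrays; the mean was -0.25 with it and -0.70 without it. The lipoxygenase POTLX-3 had too few values to be tested.

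Carbon metabolism was the longest list. Of its 14 symbols 10 were tested, 7 negative and 3 positive with a median of -0.18. Of the 10, 4 (GAPDH, TK, UCP and LDH-2) had an unadjusted p under 0.05, against 8.78% of all symbols and 2 of 5 in the defence list. The list was made with earlier results of these data known, and UCP was also among the 10 symbols with the smallest p. That share is therefore no test of the list. TK, transketolase, of the Calvin cycle and the pentose phosphate pathway, read -0.93, -1.28, 0.19 and -0.04, a mean of -0.52 (SE 0.211, adjusted p = 0.438 by limma). Its negative mean came from replicates 1 and 2, the other 2 arrays were nearer 0, and the mean without replicate 2 was -0.26. LDH-2, a lactate dehydrogenase, was positive on the 2 arrays that measured it, at 0.28 and 1.00. PGAM, phosphoglycerate mutase, averaged -0.18, and the pyruvate dehydrogenase subunits PDHE1-A and LPD2 averaged -0.19 and -0.18. PK, pyruvate kinase, averaged -0.09, PKIN1, a kinase related to yeast SNF1, 0.22, and GBSS, the granule-bound starch synthase, 0.16. Each of these last 6 had arrays of both signs.

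In the S-adenosylmethionine and one-carbon list, 2 symbols were positive and 2 negative. METK1 averaged 0.24 and ARD, acireductone dioxygenase of the methionine salvage cycle, 0.10. MS, methionine synthase, averaged -0.09 and SHMT, serine hydroxymethyltransferase, -0.26 (SE 0.135), with replicate 2 at -0.68 and replicate 4 at 0.20. Of the chloroplast symbols, PSBR averaged 0.26 and THF1 -0.37. THF1 was negative on each array, at -0.23, -0.60, -0.09 and -0.53, though with an SE of 0.201. In the transport list, KST1 and SKT3, both potassium channels, averaged 0.22 and 0.16. The plasma membrane proton pumps PHA1 and PHA2 averaged -0.19 and 0.01, and MIP2, a membrane channel protein, -0.01. PHA1 was even over its arrays, at -0.23, -0.22, -0.20 and -0.11.

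VPE2 is a vacuolar processing enzyme, a cysteine protease of a type that in Nicotiana benthamiana is needed for the hypersensitive cell death that N and TMV cause. Its 2 clones disagreed: clone 142359 averaged 1.17 over 3 arrays (SE 0.472) and clone 144948 averaged -0.60 over 2 (SE 0.270). The averaged VPE2 values were 0.96, 0.93, 0.54 and -1.09, so no common direction was measured. In the signalling list, ERS, an ethylene receptor, averaged 0.29 over 2 arrays. The calcium-dependent protein kinase CDPK2 averaged -0.01, the auxin response regulators IAA2 and IAA3 -0.01 and 0.04, the homeodomain factor BEL5 -0.06 and the MADS-box factor MADS16 0.08.

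**Figure D3:**
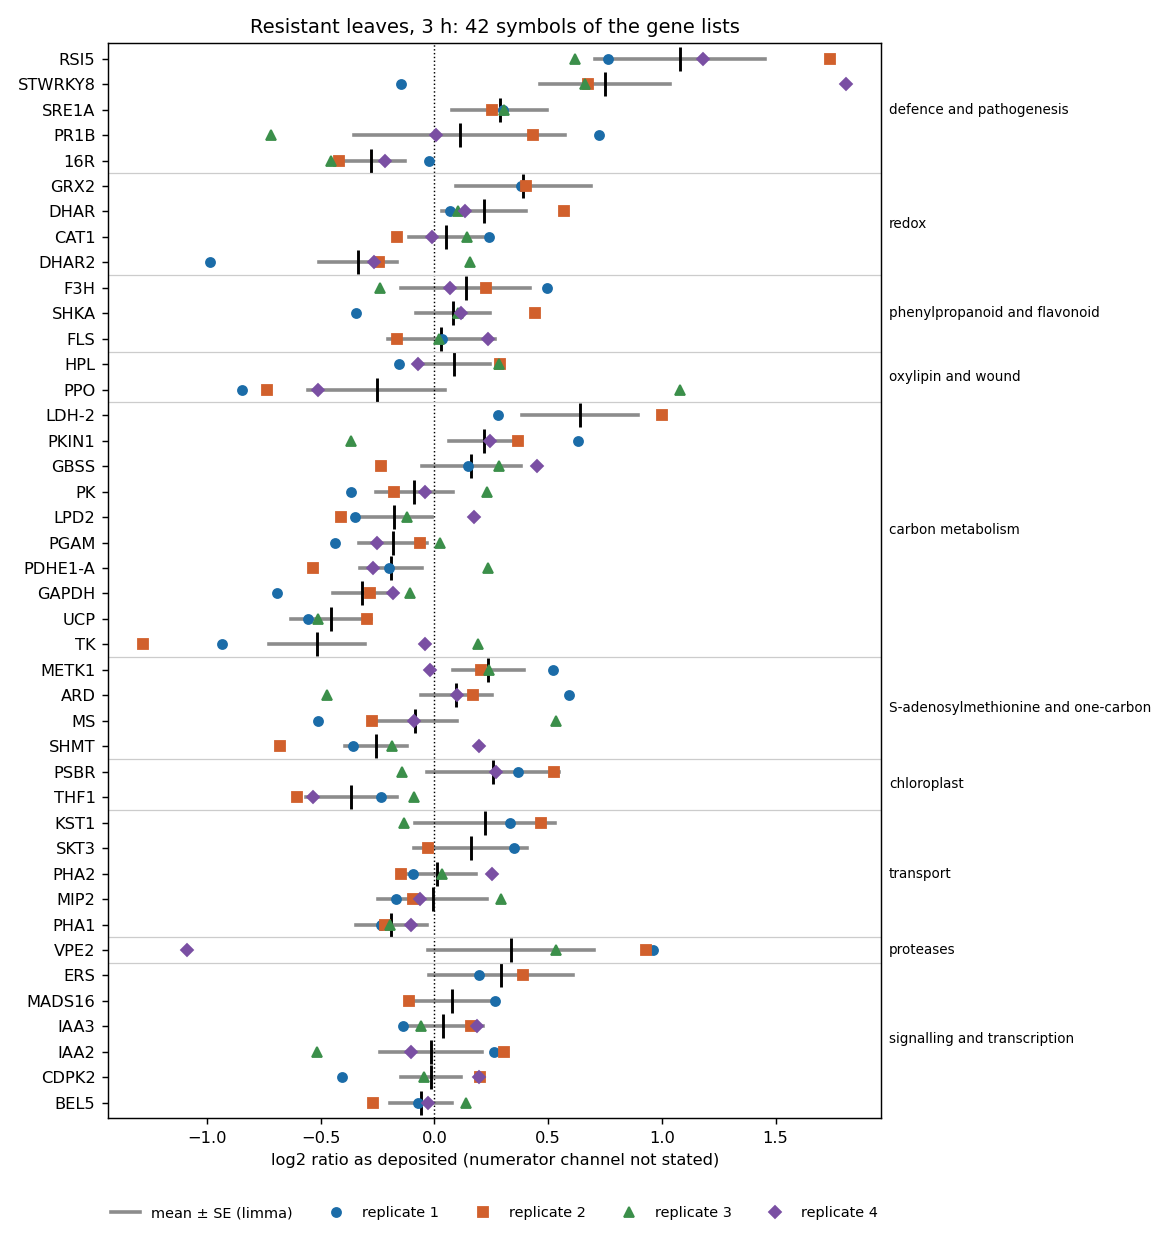
Log2 ratio as deposited (x axis) of the 42 tested symbols of the 10 gene lists in resistant leaves at 3 h, with a point for each array, a black tick for the mean and a grey bar for its SE from limma. RSI5 is above 0 on every array and GAPDH below 0 on every array, and for most other symbols the arrays lie on both sides of 0.

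The next comparisons ask which of these values differed between the resistant line at 3 h and other groups. Of the 8 other groups, susceptible leaves at 3 h had the profile with the highest correlation. Across clones, the group means of resistant 3 h and susceptible 3 h correlated at r = 0.551 (5949 clones), against 0.232 with sun1-1 3 h (5683 clones), 0.06 with resistant 9 h and 0.169 with resistant 27 h (0.01 and 0.114 without replicate 4 of these). Over the other groups r was 0.404 for sun1-1 27 h, 0.375 for susceptible 9 h, -0.232 for susceptible 27 h and -0.353 for sun1-1 9 h. These are descriptions across clones that share the dye assignment and probes, and clones are not independent replicates. Of the arrays compared, sun1-1 3 h replicate 3 stood apart, with an SD of its log2 ratios of 1.35 against 0.339 to 0.485 on the 4 resistant 3 h arrays.

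Against susceptible leaves at 3 h, no clone passed the adjusted threshold in limma (0 of 5949, lowest adjusted p 1), and 91 clones (1.53%) had an unadjusted p under 0.05. At that level 297 would be counted if no clone differed and clones were independent. LOC102599567 had the smallest p among clones with a symbol. It read 0.05, 0.70 and 0.20 in resistant leaves and 1.38, 2.21 and 1.89 in susceptible leaves, a difference of -1.51 (SE 0.447, unadjusted p = 0.00515 by limma). The 2 groups did not overlap, but the clone was chosen for its small p in this same difference. Replicate 4 of the resistant line had no value. The share of all tested clones whose groups did not overlap was not counted, here or in the comparisons below. LOC102581985 had 2 clones with differences of -0.75 and -0.70. Clone 147639 read -0.58, -0.52, -0.38 and 0.02 in resistant leaves and -0.03, 0.94 and 0.24 in susceptible leaves. These groups overlapped, susceptible replicate 2 was far above the others, and without it the differences of the 2 clones were -0.47 and -0.41.

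LOC102595943, LOC102596978, RSI5 and STWRKY8 had means of one sign in both lines at 3 h. LOC102595943 averaged -0.64 ± 0.24 in resistant leaves (SD, n = 4) and -0.59 ± 0.16 in susceptible leaves (SD, n = 3). LOC102596978 averaged 0.89 ± 0.56 in resistant and 0.86 ± 0.40 in susceptible leaves. RSI5 averaged 1.08 ± 0.50 in resistant and 1.66 ± 1.04 in susceptible leaves, and STWRKY8 0.75 ± 0.80 in resistant and 0.89 ± 0.30 in susceptible leaves. The differences were -0.05 (SE 0.279) for LOC102595943, 0.03 (SE 0.394) for LOC102596978, -0.59 (SE 0.570) for RSI5 and -0.14 (SE 0.433) for STWRKY8, the last being -0.49 without resistant replicate 4. None had an unadjusted p under 0.05, which does not show that the lines were equal, and the SEs leave room for differences as large as the means themselves for RSI5 and STWRKY8.

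Against sun1-1 leaves at 3 h, 0 of 5683 clones passed (lowest adjusted p 0.722 by limma) and 379 (6.67%) had an unadjusted p under 0.05. Without the wide sun1-1 replicate 3 that count was 166 of 5610 (2.96%). The 3 clones with a symbol and the smallest p all leaned on the same array. DHAR clone 146279 read 0.32, 0.57, 0.10 and 0.13 in resistant leaves and -0.38, -0.21 and -2.43 in sun1-1 leaves, a difference of 1.29 (SE 0.367), and 0.57 without sun1-1 replicate 3. The groups of this clone, chosen for its small p in this same difference, did not overlap with or without that array. With the clones of DHAR averaged, the difference was only 0.25 (SE 0.281). Those groups overlapped, from 0.07 to 0.57 in resistant and from -0.38 to 0.50 in sun1-1 leaves. In sun1-1 replicate 3 the averaged value was 0.50, against -2.43 for clone 146279. LOC102577512 clone 152876 differed by 0.83 with the array and by 0.39 without it, and DHAR2 clone 153593 by -0.87 with it and by -0.49 without it.

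Against the later times of the resistant line, LOC102595943, GAPDH and LOC102596978 lay nearer 0 than at 3 h, or on the other side of it. They were named for their distance from 0 at 3 h, a choice that by itself favours values nearer 0 in other groups. At 9 h, 0 of 5100 clones differed by the adjusted threshold (lowest adjusted p 0.641 by limma) and 376 (7.37%) had an unadjusted p under 0.05. LOC102595943 clone 152926 read -0.81, -0.53, -0.62 and -0.63 at 3 h and 0.09, 0.25, 0.21 and 0.12 at 9 h, a difference of -0.82 (SE 0.233). The 2 times did not overlap for this clone, which was chosen for its small p in this same difference. LOC102600559 clone 155807, given above for 3 h, read -0.35, -0.59 and 0.08 at 9 h, a difference of 0.70 (SE 0.206), and LOC102598365 differed by -1.17, with values of -0.55, -0.26, 0.14 and 0.01 at 3 h and 1.05 and 0.97 on the 2 arrays of 9 h that measured it. Without 9 h replicate 4, the array whose treatment text names another time, the differences of these 3 clones were -0.83, 0.70 and -1.17, and 400 of 5046 clones had an unadjusted p under 0.05. LOC102596978 averaged -0.20 ± 0.57 (SD, n = 3) at 9 h, a symbol difference of 1.09 (SE 0.394, adjusted p = 0.768 by limma), and had no value in 9 h replicate 4.

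At 27 h, 0 of 5675 clones differed (lowest adjusted p 0.867 by limma) and 305 (5.37%) had an unadjusted p under 0.05. LOC102595943 clone 150107, given above for 3 h, read -0.27, 0.68, 0.06 and 0.23 at 27 h, a difference of -0.93 (SE 0.237). GAPDH clone 151485 read 0.40, 0.49, 0.00 and -0.30 at 27 h, a difference of -0.70 (SE 0.190), and LOC102577562 clone 143209 differed by -0.83 (SE 0.217). The arrays of the 2 times did not overlap for these clones, which were chosen for their small p in this same difference. For GAPDH the gap was narrow, from -0.35 at 3 h to -0.30 at 27 h, and clone 143209 had 3 arrays at each time. Without 27 h replicate 4 the differences of clones 150107, 151485 and 143209 were -0.92, -0.85 and -0.99, and 276 of 5573 clones had an unadjusted p under 0.05. STWRKY8 averaged -0.28 ± 0.54 (SD, n = 4) at 27 h, a symbol difference of 1.03 (SE 0.401, adjusted p = 0.714 by limma), 1.15 without 27 h replicate 4 and 0.68 without 3 h replicate 4.

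Against the mean of the other 8 groups, in which a constant dye preference cancels, 0 of 4396 clones passed (lowest adjusted p 0.298 by limma) and 236 (5.37%) had an unadjusted p under 0.05. The 3 clones with a symbol and the smallest p were those already leading against 0. LOC102595943 clone 150107 averaged -0.76 at resistant 3 h and -0.14 over the other groups, a difference of -0.62 (SE 0.182). LOC102577562 clone 143209 averaged -0.61 and -0.02, a difference of -0.59 (SE 0.165), and GAPDH clone 151485 averaged -0.55 and -0.05, a difference of -0.50 (SE 0.145). Each had an adjusted p of 0.485 in limma. The other clones of these symbols went the same way: the 5 others of LOC102595943 differed by -0.64 to -0.42, and the 6 others of GAPDH by -0.38 to -0.17. These comparisons all share the 4 resistant 3 h arrays, so they are not independent of each other.

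Across the 9 groups, GAPDH averaged -0.32 ± 0.26 in resistant leaves at 3 h (SD, n = 4), followed by -0.19 ± 0.14 in sun1-1 leaves at 27 h (SD, n = 3), and the other 7 groups lay between -0.06 and 0.24. The SDs of these lowest groups overlap, and without replicate 1 the resistant 3 h mean was -0.19, the same as in sun1-1 leaves at 27 h. Against the other genotypes at 3 h, the GAPDH differences were -0.29 (SE 0.195) from both susceptible and sun1-1 leaves, with adjusted p of 0.999 and 0.792 by limma. LOC102595943 averaged -0.64 in resistant, -0.59 in susceptible and -0.56 ± 0.71 in sun1-1 leaves at 3 h, and between -0.24 and 0.19 in the 6 later groups. The sun1-1 mean at 3 h rested on replicate 3: without that array it was -0.16, from values of 0.02 and -0.35 (n = 2). LOC102577562, with its clones averaged, was -0.53 ± 0.06 in resistant leaves at 3 h and next lowest at -0.38 ± 0.33 in susceptible leaves at 9 h.

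**Figure D4:**
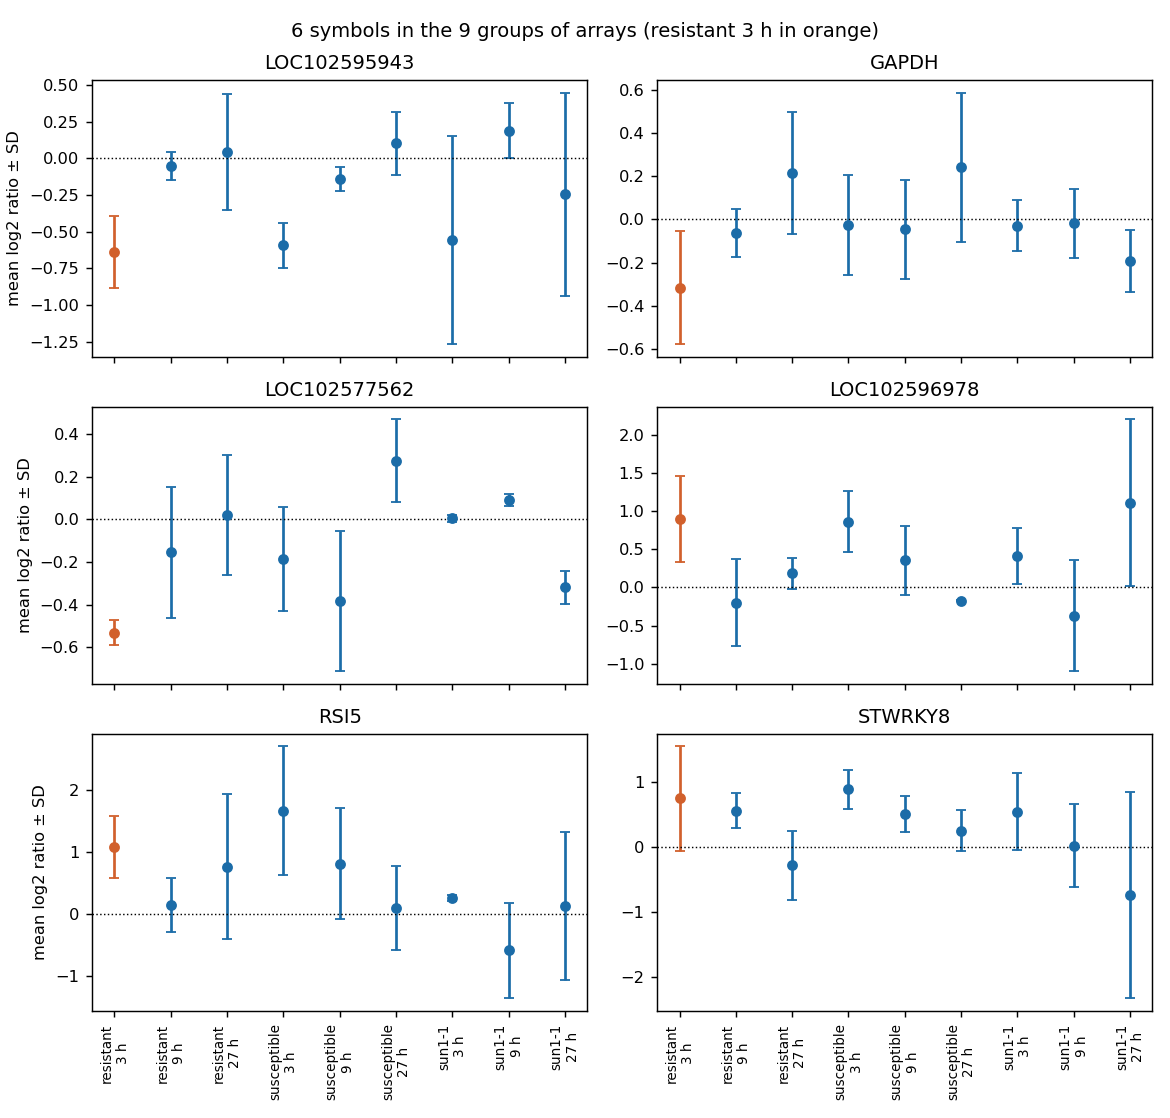
Mean log2 ratio as deposited (y axis) of 6 symbols in the 9 groups of arrays, with resistant leaves at 3 h in orange and bars for the SD over 2 to 4 arrays. LOC102595943 averages -0.64, -0.59 and -0.56 in the resistant, susceptible and sun1-1 groups at 3 h, the sun1-1 value being -0.16 without replicate 3, the widest array. GAPDH averages -0.32 in resistant leaves at 3 h (-0.19 without replicate 1).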

How the data were processed

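Leaf RNA of TMV-challenged and mock-treated tomato was measured on 2-colour arrays. The deposited values are log2 ratios that the authors had processed with limma, per the submitters' processing notes. Its version, the scanner, background correction, normalization and the reason for empty cells are not given in the sources used here. Base 2 was inferred, since 100% of the 5154 values at or below -1 were log2 values of ratios rounded to 2 decimals, to within 0.002. The 2 spots of a clone were paired by the array's layout, which all 905 annotated pairs followed, and averaged. Values of sun1-1 27 h replicate 2 were shifted by 1 row and were moved back. After the move, 494 of its 7829 clones with a value had a symbol, against 693 of 7887 in sun1-1 3 h replicate 2. Whether all its rows were then in place was not tested. It enters the sun1-1 27 h means and the mean of the other 8 groups.

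With R 4.3.3 and limma 3.58.1, every clone was fitted over the 30 arrays with a separate mean per group (9 groups), and resistant 3 h was tested against 0 and against other groups, where 2 or more arrays of each compared group had a value. The SE rests on 1 residual spread per clone over all groups, moderated with a prior SD of 0.33 and 5.60 prior degrees of freedom. Adjustment was by Benjamini and Hochberg over all clones (or symbols) of a comparison, with a threshold of 0.05. On simulated data with 6093 clones and independent normal noise, 87% of 100 clones changed by 1 on the log2 scale were recovered in the test against 0. Of 100 changed by 2, 100% were recovered. Both sets were in the same simulated data, where many changed clones ease the adjusted threshold for each other. The simulated noise of a clone had 1 spread on all arrays, whereas the real arrays differed in spread. In the real data none of the 21 clones with a mean of 1 or more passed. The 87% is therefore not a detection rate for these arrays. All changed clones had a value on all 4 resistant 3 h arrays and on most of the 30 arrays. Recovery was not simulated for the 2077 tested clones with 2 of the 4 arrays and the 1410 with 3. P values rest on that moderated residual spread between arrays over the 9 groups, not on the spread between the 4 resistant 3 h arrays alone.

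The genes named were the 15 clones with a single symbol and the smallest p, the 2 clones without a symbol on each side of 0, the 10 symbols with the smallest p, 3 clones with a symbol for each difference, and tested members of the gene lists. Symbols with 4 or more clones were added after the data were seen. The members and lists were chosen with earlier results of these data known. Alternatives were centring, scaling to one spread, array quality weights, robust moderation, the number of arrays required, single spots, clones with a symbol only, the 4 arrays alone, the replicate number as a block, and arrays left out. Clones with several symbols were not named.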

Additional observations from a re-analysis of the deposited data

Results flagged for a closer look

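Of 57 named values measured on all 4 arrays, 2 had one array set apart from the others by Dixon's ratio, and chance sets apart about 1 in 20 groups. For the averaged clones of LOC102595943, replicate 1 at -1.0 lay below the other 3 arrays, which were between -0.53 and -0.50. Its mean without replicate 1 was -0.52, so its sign does not rest on that array. For the averaged clones of DHAR, replicate 2 at 0.57 lay above the other 3, which were between 0.07 and 0.13, and the mean without it was 0.10 against 0.22 with it. The only tested clone of DHAR, 146279, read 0.32 in replicate 1. The 0.07 there averages it with a clone that had too few values to be tested.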

How the results depend on the processing

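The signs of 44 named values did not turn in any of the 698 refits, and 8 refits put a named value past the adjusted threshold of 0.05. These 44 were the clones and symbols named for their small p, a choice that by itself favours a stable sign. Symbols named only as gene list members were not among them. Of the 37 list symbols with 3 or more arrays, 13 changed the sign of their mean when some 1 array was left out. For clones against 0, the count past the threshold was 1 with each array scaled to one spread, 1 among the 2606 clones with a value on all 4 arrays, 2 with array quality weights and 2 of 10475 with spots tested singly, against 0 of 6093. Clone 142076 was the clone called by the first pair of these, and array weights called it (adjusted p = 0.0147 by limma) with LOC102595943 clone 150107 (adjusted p = 0.0151). For symbols the count was 1 with scaling (LOC102595943) and 3 with weights (LOC102577562, LOC102595943 and STWRKY8, adjusted p = 0.0160 each by limma), against 0 of 353. Weights gave replicates 3 and 4, the arrays with the fewest values, 1.47 and 1.58, against 0.763 and 0.737 for replicates 1 and 2. Replicate 4 also had the lowest correlation of duplicate spots among these arrays, r = 0.490. The unweighted STWRKY8 mean was 0.75 with replicate 4 and 0.40 without it. Without a filter on the number of arrays, 2 of 8482 clones, neither with a symbol, differed between resistant and sun1-1 leaves at 3 h.

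At an unadjusted p under 0.05, the 613 clones against 0 became 317 of the 2606 with 4 arrays, 85 of the 653 with a symbol, 1043 with single spots and 335 to 565 with one array left out. The 31 symbols became 47 with scaling, 60 with weights and 16 to 34 with one array left out. The low ends came without replicate 1 (335 clones, 16 symbols) and without replicate 2 (340 clones, 17 symbols), which also left fewer to test.

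With the replicate number as a block, 0 of 6021 clones passed (lowest adjusted p 0.0661 by limma) and 590 had an unadjusted p under 0.05, and no call of the other comparisons changed. Whether the numbers pair the samples is not settled. For this check, deviations of arrays from their group means were correlated. Resistant 3 h arrays and arrays of other groups with the same number had a mean r of 0.02 over 26 pairs (8 over 0.1). With other numbers the mean r was -0.005 over 78 pairs (20 over 0.1). Of the 4 arrays, 2 correlated best with their own number. The number of values per array limits the comparison, since 5606 clones had no value on any of the 4 arrays and 3661 on only 1.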
